A study of Caenorhabditis elegans with 2 samples.

Results

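The X peaks described here are the 501 strong peaks of the tagged transcription factor HLH-15 on the X chromosome of Caenorhabditis elegans. They lie away from small RNA genes and come from 17654 peaks in the list called on both replicates together. They were chosen by 3 conditions: a peak on X, a pooled signal value of 30 or more, and a summit over 100 bp from every annotated tRNA, snoRNA, snRNA and miRNA gene. Of 609 X peaks with that signal, 108 (17.7%) were set aside for their distance, 106 of them for a tRNA gene and 2 for a snoRNA gene, against 214 of 3062 (6.99%) on the autosomes. The same conditions gave 2848 autosomal peaks, which serve as the comparison. The list called on both replicates was deposited as peaks and background for input to an irreproducible discovery rate step. Peaks on either side of the threshold can thus include background. Only 23 of the 501 X peaks and 203 of the autosomal ones are in the list kept after that step. Chromatin immunoprecipitation and sequencing was done on 2 biological replicates of 1 group, late embryos of strain OP566 taken 3 hours after egg bleaching from hermaphrodites. The strain's genotype is unc-119(tm4063) III; wgIs566, a transgene in which GFP-FLAG is fused to the C-terminal end of HLH-15, so both replicates hold the unc-119 allele and the transgene. The labels do not name the transgene's promoter. The labels describe a pull-down against GFP but name hlh-15 as the antibody, and they give no second group, so peaks are compared between chromosomes and not between conditions.

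HLH-15 belongs to the bHLH proteins, a family whose dimers bind the E-box, CANNTG. X differs from the autosomes in its regulation: in XX animals the dosage compensation complex, a condensin-based assembly, loads at recruitment sites on X and lowers X transcription, and a shared feature of those sites is a motif with the core GCGCAGGG. Promoters of protein-coding genes, in particular those between genes that run away from each other, are the usual places of strong transcription factor peaks.

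That core was the 8-base word that set the X peaks furthest apart from the autosomal ones, and 8 of the X sites that carry it are shown for that reason, from WBcel235 (ce11), 5′ to 3′ on the strand given, with the core in capitals. The 8 are examples picked after the values were seen, and not the strongest. Sites nearest WBGene00020828 (pooled signal 81.4), Y41G9A.17 (73.7) and C41A3.2 (73.6) are among those left out. Most of the 8 have TC directly before the core, against 11 of all 19 sites, so they overstate how far letters outside it are shared. Each site shown is named by its nearest protein-coding gene, in order of peak signal. They lie at chrX:11094210-11094250 (minus strand), chrX:6296559-6296599 (plus), chrX:806657-806697 (plus), chrX:4209250-4209290 (minus), chrX:14525884-14525924 (minus), chrX:8036385-8036425 (minus), chrX:4395598-4395638 (plus) and chrX:13514541-13514581 (plus).
W02H3.3: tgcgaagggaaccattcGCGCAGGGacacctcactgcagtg
cest-16: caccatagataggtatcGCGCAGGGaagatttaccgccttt
gtr-1: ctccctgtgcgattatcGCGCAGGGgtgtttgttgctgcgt
F20B6.9: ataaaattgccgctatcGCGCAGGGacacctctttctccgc
nspc-17: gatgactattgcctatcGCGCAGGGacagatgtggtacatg
xol-1: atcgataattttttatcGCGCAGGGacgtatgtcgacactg
dpy-23: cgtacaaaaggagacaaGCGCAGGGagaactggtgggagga
col-185: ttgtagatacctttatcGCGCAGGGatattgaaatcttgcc

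The word GCGCAGGG, read on both strands in windows of 201 bases centred on the summit, was found at 19 of 501 X peaks (3.79%; Wilson 95% interval 2.44 to 5.85%) and at 2 of 2848 autosomal peaks (0.0702%; 0.0193 to 0.256%). The odds ratio was 46.02 (95% interval 12.3 to 172), and the two-sided Fisher's exact test gave an adjusted p of 2.45e-13 over 10 motifs. Weaker X peaks, those of the same pooled list with a signal under 30 and also away from small RNA genes, held it in 6 of 2186 windows (0.274%), an odds ratio of 13.6 for X peaks over weaker X peaks (5.55 to 33.1; Fisher's exact test, adjusted p = 5.33e-06 over 17837 words). Weaker autosomal peaks held it in 6 of 11653 windows (0.0515%), and the X excess was 8.61 times as large in odds at strong as at weaker peaks (1.56 to 47.7; two-sided z test of log odds ratios, n = 501 X peaks and n = 2186 weaker X peaks, unadjusted p = 0.0136, adjusted p = 0.0783 over 23 measures), which did not pass. The share of all windows of this length that hold the word was 0.0851% on X and 0.0553% on the autosomes. In a search of every 8-base word, the same word was the first of 33 that were more frequent at X peaks (0.161% of the 20485 words tested), and 72 words (0.351%) were less frequent, at an adjusted p under 0.05. Against the weaker X peaks 13 of 17837 words (0.0729%) were more frequent, and 10 of those 13 were among the 33. The search was added after the data were seen, and overlapping words in it count the same sites: CGCAGGGA, for instance, was at 16 X peaks.

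Part of the sites with the core also shared letters next to it. Directly before it a C stood at 14 of the 19 sites, against 33 of all 81 GCGCAGGG sites on X (40.7%). The pair TC stood there at 11 of 19 sites, against 19 of 81. An A followed the core at 13 of 19 sites, against 34 of 81 (41.98%). The pair AG followed it at 5 of 19 sites, against 10 of 81. Only 2 of 19 sites had both TC before and AG after it, against 3 of 81. The 81 include the sites at X peaks, and these differences were not tested. The median distance from the core's centre to the summit was 33.5 bp, and 13 of the 19 cores lay within 50 bp. Seen from the genome, 23 of the 81 X copies (28.4%) lay within 100 bp of an X peak and 31 (38.3%) within 100 bp of any pooled peak, against 2 (0.858%) and 12 (5.15%) of 233 autosomal copies. A related word, CGAAGGGA, was at 12 X peaks (2.40%) and 2 autosomal peaks (0.0702%), with an adjusted p of 2.23e-05 over the 20485 words. It stood at 6 of the 19 peaks with the core, the one nearest W02H3.3 among them, and at 6 others, nearest fbxb-58, M163.11, ZK899.6, hlh-29, hbl-1 and unc-10. One of the words or both were at 25 X peaks (4.99%).

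The peaks with the core were spread over the range of signals, and the share of X peaks with it was highest at signals of 50 or more. Signal chose the X peaks, so these values are a description. Among X peaks with a signal of 50 or more, 9 of 37 held it (24.3%; 13.4 to 40.1%), against 0 of 327 autosomal peaks, where a count of 0 allows a share of up to 0.917% (3 counts). Between signals of 40 and 50 the counts were 4 of 87 on X and 1 of 445 on the autosomes. Between 30 and 35 they were 2 of 250 (0.800%) and 1 of 1450. Of the 50 strongest X peaks 9 held the core, and of the 23 X peaks that the authors kept by irreproducible discovery rate (the IDR list, which scores how ranks repeat between replicates) 8 did. Their median pooled signal was 47.7, against 34.9 for the other 482 X peaks.

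**Figure D1:**
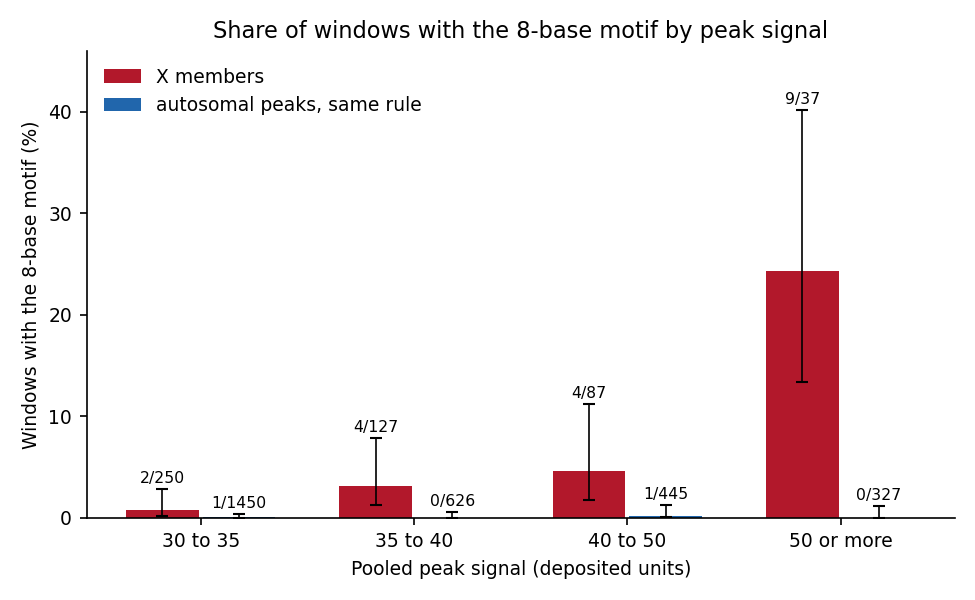
Share of peak windows with GCGCAGGG (the 8-base motif; vertical axis, %) by pooled peak signal (horizontal axis, deposited units), for X peaks (red) and autosomal peaks chosen by the same rule (blue). Bars are shares, error bars Wilson 95% intervals, and the fractions give windows with the motif over all windows; the X share is 24.3% at signals of 50 or more and 0.800% between 30 and 35.

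The strongest site with the core lay 3976 bp downstream of the start of W02H3.3, between genes, with signals of 79.1 in replicate 1 and 55.9 in replicate 2 and a pooled value of 142. The site in an intron, nearest cest-16, named as a carboxylesterase, had 63.3 in replicate 1 and 26.6 in replicate 2. The site nearest gtr-1 had 45.3 in replicate 1 and 37.6 in replicate 2. Both replicates thus had a peak at each of these sites. The site nearest xol-1, the switch gene whose activity sets male development and keeps dosage compensation off, lay 4927 bp upstream of its start, with 18.4 in replicate 1 and 29.2 in replicate 2. Its summit was 299 bp from the nearest small RNA gene. The site nearest dpy-23, which encodes the mu subunit of the AP-2 clathrin adaptor, lay 6273 bp downstream of its start, between genes, and had 20.4 in replicate 1 and 13.7 in replicate 2. At Y41G9A.17 2 peaks in an intron each held a copy, with pooled signals of 73.7 and 43.3. The stronger of these had 42.7 in replicate 1 and no peak in the list of replicate 2. The other sites were nearest WBGene00020828, C41A3.2, B0302.2, F22H10.2, ins-39 (an insulin-like peptide), jkk-1 (a kinase of the JNK pathway), sedl-1, kin-20 (a casein kinase) and sdn-1 (the syndecan), with pooled signals from 30.3 to 81.4. Of all 19, 17 had a peak in both replicate lists, and at 6 the nearest protein-coding start was within 2 kb.

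**Figure D2:**
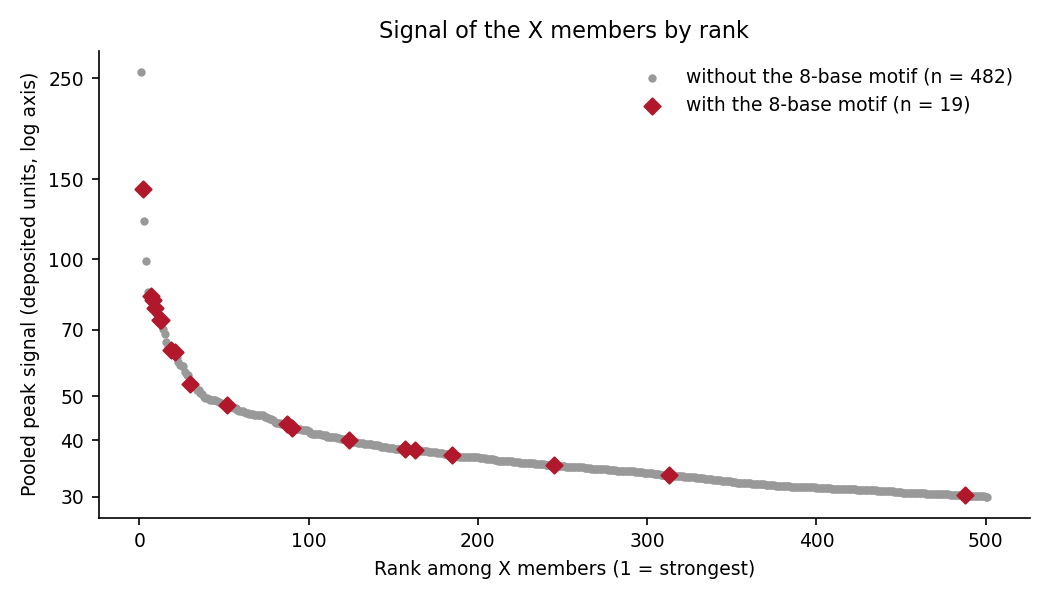
Pooled signal (vertical log axis, deposited units) of each of the 501 X peaks in order of rank (horizontal axis); red diamonds are the 19 peaks with GCGCAGGG (the 8-base motif) and grey points the other 482. The second strongest peak, at 142, holds the motif, and 9 of the 50 strongest do.

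The core lay between genes more often than elsewhere among the X peaks. It was at 11 of 156 intergenic peaks (7.05%) and at 8 of the other 345 (2.32%), an odds ratio of 3.14 (1.27 to 7.78; two-sided Fisher's exact test, adjusted p = 0.0396 over 2 tests). At peaks upstream of genes it was at 3 of 165 (1.82%), against 16 of the other 336 (4.76%), and that difference did not pass (odds ratio 0.42, 0.13 to 1.35; Fisher's exact test, adjusted p = 0.136). Both tests were added after the data were seen.

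The X peaks had signal values between 30.04 and 258, the median was 35.03, and 250 peaks (49.9%) were below 35. Of the X peaks of the pooled list that lay away from small RNA genes, 501 of 2687 (18.6%) reached the threshold, against 2848 of 14501 autosomal peaks (19.6%). Just inside it stood a peak nearest cah-3 (30.04), an alpha carbonic anhydrase gene, and just outside it a peak nearest nlg-1 (29.95), the neuroligin gene. A peak in the replicate 1 list lay at 474 of the X peaks (94.6%) and in the replicate 2 list at 422 (84.2%), and 395 (78.8%) had both. The replicate values at the X peaks ran from 12.4 to 178 in replicate 1 (median 22.9) and from 7.26 to 83.7 in replicate 2 (median 13.7), on scales that are not comparable. Across the 395 peaks the replicate signals had a Spearman rho of -0.01 and a Pearson r of 0.21 on the log2 scale, a description over peaks already picked by the pooled signal. The order of X peaks by strength thus differed between the replicates, although the strongest was in rank 5 of the replicate 1 list and rank 13 of the replicate 2 list. The IDR list held 23 of the X peaks (4.59%), against 203 autosomal peaks (7.13%).

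The annotation at the summits differed between X and the autosomes. Summits within 1 kb upstream of a protein-coding transcription start site (TSS) or in a 5′ UTR made up 165 of 501 X peaks (32.9%; 29.0 to 37.2%) and 1205 of 2848 autosomal peaks (42.3%; 40.5 to 44.1%), an odds ratio of 0.67 (0.55 to 0.82; two-sided Fisher's exact test, adjusted p = 0.000158 over 6 classes). Summits between genes made up 156 X peaks (31.1%; 27.2 to 35.3%) and 463 autosomal peaks (16.3%; 14.9 to 17.7%), an odds ratio of 2.33 (1.88 to 2.89; the same exact test, adjusted p = 5.07e-13). The X share of upstream peaks was below that of each of the 5 autosomes (39.8 to 45.1%) and its intergenic share above each of them (14.1 to 18.5%). Introns held 20.2% of X peaks and 27.8% of autosomal ones (odds ratio 0.66; same exact test, adjusted p = 0.000441), a difference that turned round at signals of 40 or more (15.3% on X and 14.4% on the autosomes) and did not pass against chromosome IV alone (odds ratio 0.75, adjusted p = 0.0984) or V alone (0.75, adjusted p = 0.126). Exons of non-coding genes held 3.99% of X peaks and 1.19% of autosomal ones (odds ratio 3.47, 1.99 to 6.05; same exact test, adjusted p = 0.000145). That call was lost at signals of 40 or more, in the IDR list, against chromosome V alone, and in replicate 2 alone, where the shares were 1.69% on X and 1.29% on the autosomes. Coding exons (9.78% on X and 10.4% on the autosomes) and 3′ UTRs (2.00% on X and 2.04% on the autosomes) did not pass. The Fisher's tests take peaks as independent, although 50 X peaks stand in pairs whose summits lie within 500 bp.

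**Figure D3:**
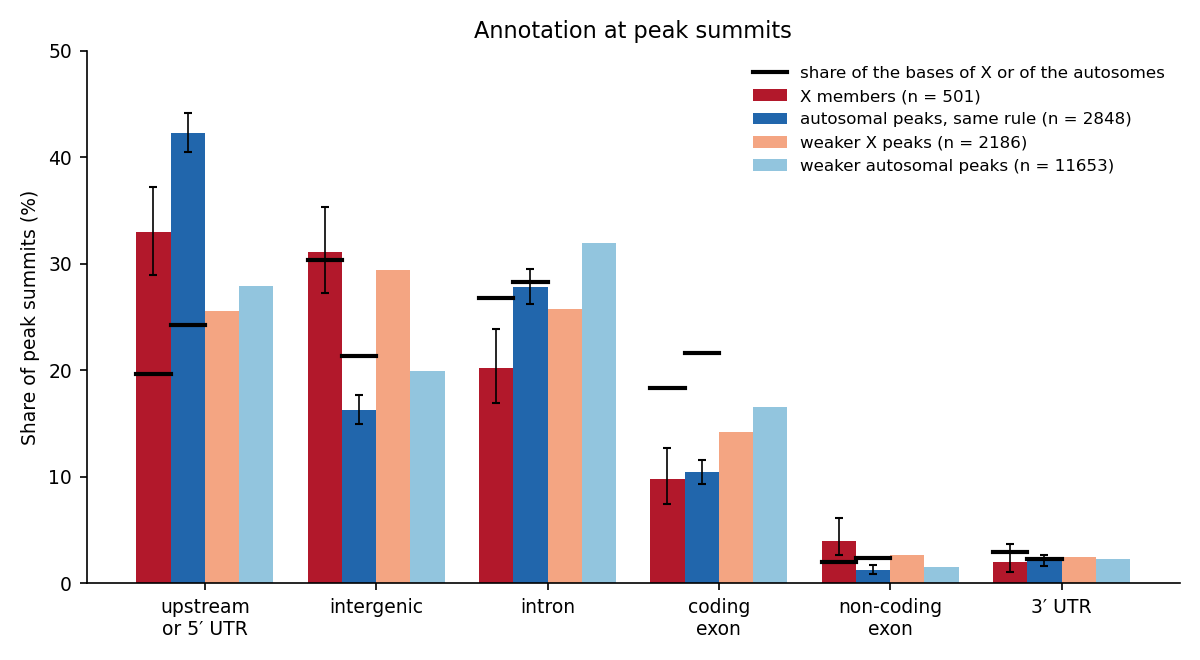
Share of peak summits (vertical axis, %) in each annotation class for X peaks (red), autosomal peaks chosen by the same rule (blue), weaker X peaks (light red) and weaker autosomal peaks (light blue); error bars are Wilson 95% intervals, and the black line over each dark bar is the share of the bases of X or of the autosomes in that class. X peaks are upstream in 32.9% and intergenic in 31.1% of cases, and autosomal peaks in 42.3% and 16.3%.

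X has fewer genes per length, and part of this contrast was also there at weaker peaks. X carried 28.3 of the strong peaks per Mb and 154 protein-coding genes per Mb, against 34.5 peaks and 209 genes per Mb on the autosomes. Single autosomes ranged from 25.3 peaks per Mb on V to 47.4 on III, so that X lay above V and IV (26.9 per Mb), and V had 239 genes per Mb. Of the bases of X 19.6% fell in the upstream class and 30.3% between genes, against 24.2% and 21.3% of autosomal bases. Weaker peaks were upstream in 25.6% of X cases and 27.9% of autosomal cases, an odds ratio of 0.89 (0.80 to 0.99). The X deficit of upstream peaks was larger among strong peaks than among weaker ones (ratio of odds ratios 0.75, 0.60 to 0.94; two-sided z test, n = 501 X peaks, p = 0.0140). The excess of intergenic peaks on X was 1.39 times as large in odds as among weaker peaks (1.10 to 1.77; z test, n = 501 X peaks, unadjusted p = 0.00590, adjusted p = 0.0581 over 23 measures added after the data were seen), which did not pass. It did pass at signals of 40 or more (1.89, n = 124 X peaks, adjusted p = 0.0465), at 60 or more, in the IDR list, with 1 peak per 500 bp and with 500 bp or 2 kb as the upstream limit (1.43 to 8.14, adjusted p = 0.00537 to 0.0281), and turned to 0.98 at 20 or more. For upstream peaks the ratio of odds ratios between strong and weaker peaks did not pass in either replicate alone (z test, 0.90, p = 0.346, without replicate 1, n = 531 X peaks, and 0.86, p = 0.179, without replicate 2, n = 511). At a signal of 20 or more it turned to 1.05. The X deficit among strong peaks itself passed in each replicate alone (Fisher's exact test, odds ratio 0.72, adjusted p = 0.00266, without replicate 1, and 0.72, adjusted p = 0.00213, without replicate 2).

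The upstream share rose with signal on X and on the autosomes, and the intergenic share fell only on the autosomes at signals of 50 or more. Between signals of 30 and 35 the upstream share was 24.8% of 250 X peaks and 32.1% of 1450 autosomal peaks. At signals of 50 or more it was 45.9% of 37 X peaks (31.0 to 61.6%) and 77.1% of 327 autosomal peaks (72.2 to 81.3%). The intergenic share at signals of 50 or more was 35.1% on X (21.8 to 51.2%) and 7.65% on the autosomes (5.23 to 11.04%). In the IDR list the upstream share was 52.2% of 23 X peaks and 86.2% of 203 autosomal peaks, an odds ratio of 0.18 (Fisher's exact test, adjusted p = 0.000934). Without the windows that hold GCGCAGGG the upstream share was 33.6% on X and 42.3% on the autosomes (odds ratio 0.69, Fisher's exact test, adjusted p = 0.000541).

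Distance from the TSS showed the contrast most directly. The summit lay within 200 bp upstream of the nearest protein-coding TSS at 37 of 501 X peaks (7.39%; 5.41 to 10.01%) and at 414 of 2848 autosomal peaks (14.5%; 13.3 to 15.9%), an odds ratio of 0.47 (0.33 to 0.67; two-sided Fisher's exact test, p = 5.09e-06). Each autosome by itself was between 13.4 and 15.3%. Among weaker peaks the shares were 6.08% on X and 6.72% on the autosomes, and the X deficit was larger at strong peaks (ratio of odds ratios 0.53, 0.35 to 0.78; z test, n = 501 X peaks, adjusted p = 0.0343). That difference did not pass in either replicate alone, with ratios of 0.83 (n = 531 X peaks, adjusted p = 0.544) without replicate 1 and 0.75 (n = 511, adjusted p = 0.507) without replicate 2. Nor did it pass at signals of 40 or more (z test, n = 124 X peaks, adjusted p = 0.0834), at 60 or more (adjusted p = 0.551), in the IDR list (adjusted p = 0.498) or against any single autosome (adjusted p = 0.0539 to 0.199), and at 20 or more the ratio turned to 1.33. The median distance to the nearest TSS was 1294 bp on X and 787 bp on the autosomes. A TSS lay within 2 kb at 321 X peaks (64.1%) and 2087 autosomal peaks (73.3%).

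**Figure D4:**
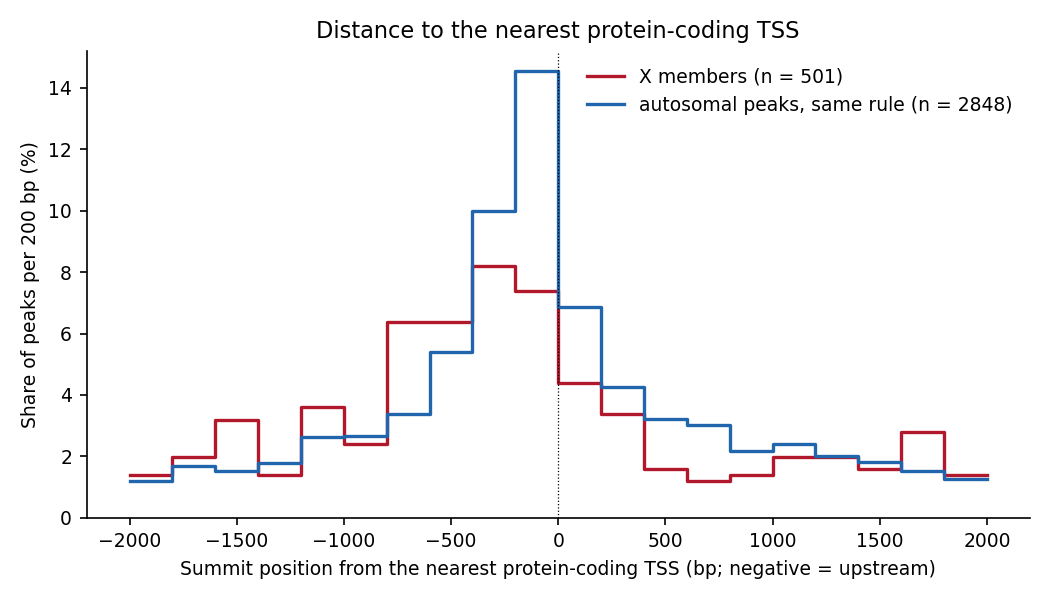
Position of the summit relative to the nearest protein-coding TSS (horizontal axis, bp, negative values upstream) against the share of peaks in each 200 bp (vertical axis, %), for X peaks (red) and autosomal peaks chosen by the same rule (blue). The last 200 bp before the TSS hold 7.39% of X peaks and 14.5% of autosomal peaks.

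Peaks between divergent genes were rarer still on X. A summit outside genes with a protein-coding gene starting within 2 kb on each side and running away from it was found for 22 X peaks (4.39%; 2.92 to 6.56%) and 350 autosomal peaks (12.3%; 11.1 to 13.5%), an odds ratio of 0.33 (0.22 to 0.52; two-sided Fisher's exact test, p = 1.93e-08). Weaker peaks had 2.84% on X and 4.19% on the autosomes. The difference between strong and weaker peaks did not pass (ratio of odds ratios 0.50, 0.30 to 0.83; z test, n = 501 X peaks, adjusted p = 0.0581), but it did at signals of 40 or more (0.22, adjusted p = 0.0230), without replicate 1 (0.44, adjusted p = 0.0313) and with 1 peak per 500 bp (0.47, adjusted p = 0.0486).

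The strongest X peak stood upstream of T13C5.6, 151 bp before its TSS, with signals of 178 in replicate 1 and 83.7 in replicate 2 and a pooled value of 258. Its summit lay in C14F11.14, a gene annotated as a non-coding RNA of no small RNA class, which is why the rule kept it. A stretch of 33 bases in its window occurs at 3 places in the 6 nuclear chromosomes, all on X, and all 3 lie at X peaks. It was found after the values were seen, by comparing the windows of T13C5.6 and ZK816.3. The copies are shown with the shared stretch in capitals because their sequence goes on to match outside it, from chrX:6207841-6207923 (plus strand), chrX:3348036-3348118 (plus) and chrX:3914467-3914549 (minus).
T13C5.6: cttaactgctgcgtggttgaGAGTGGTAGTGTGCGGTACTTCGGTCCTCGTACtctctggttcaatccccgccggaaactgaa
ZK816.3: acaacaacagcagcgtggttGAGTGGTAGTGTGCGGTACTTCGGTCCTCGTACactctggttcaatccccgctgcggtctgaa
idpp-9: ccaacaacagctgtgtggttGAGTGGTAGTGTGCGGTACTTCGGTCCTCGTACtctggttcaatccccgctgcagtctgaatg

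All 3 copies lay in annotated non-coding RNA genes: C14F11.14 for the first, ZK816.8 and ZK816.9 for the second, and T22B2.9 and T22B2.12 for the third. The ZK816.3 peak had signals of 51.95 in replicate 1 and 17.7 in replicate 2, and the idpp-9 peak had 27.2 in replicate 1 and 7.74 in replicate 2. The order of the 3 was the same in both replicates and in the pooled list (258, 68.4 and 34.2), with T13C5.6 far above the others. Summits were 39, 16 and 59 bp from the centre of the stretch at T13C5.6, ZK816.3 and idpp-9. A second X peak 200 bp away at T13C5.6 had a pooled signal of 99.0, with 19.96 in replicate 1 and 15.9 in replicate 2.

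Non-coding RNA genes outside the small RNA classes were near many other X peaks. The summit lay within 100 bp of such a gene at 74 X peaks (14.8%; 11.9 to 18.1%) and 182 autosomal peaks (6.39%; 5.55 to 7.35%), an odds ratio of 2.55 (1.91 to 3.40; two-sided Fisher's exact test, adjusted p = 1.01e-08 over 4 gene types). Weaker peaks had nearly the same contrast, with 8.51% on X and 3.38% on the autosomes. At 71 of the 74 peaks the nearest such gene is of the class ncRNA, of which the annotation has 2520 on X and 5244 on all autosomes together. Against chromosome V alone, where the share was 9.83%, the difference did not pass (Fisher's exact test, adjusted p = 0.0692). With only 22 X peaks at signals of 60 or more it did not pass either, at an odds ratio of 2.72 (22.7% on X and 10.2% on the autosomes, exact test, adjusted p = 0.294). Nor did it pass in the IDR list with 23 X peaks, at 2.66 (21.7% on X and 9.85% on the autosomes, exact test, adjusted p = 0.299). The strongest examples after C14F11.14 were F52D10.9 at the ftt-2 peak (121), F13D11.18 at an hbl-1 peak (75.3), ZK816.8 at the ZK816.3 peak (68.4) and F54E4.5 at the F54E4.3 peak (58.6). Pseudogenes, piRNA genes and rRNA genes were at 8, 1 and 0 X peaks, and none of these types passed.

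Upstream peaks of protein-coding genes made up most of the rest of the top. Upstream came first in the order of classes, and the summits of the ftt-2, ZK816.3 and F54E4.3 peaks also lay in non-coding RNA genes. The ftt-2 gene, which encodes a phosphoprotein-binding adaptor, had the X peak of rank 3, 734 bp before its TSS, with 73.5 in replicate 1 and 47.2 in replicate 2. The gly-13 gene, for an N-acetylglucosaminyltransferase that starts complex N-glycans, had a peak 177 bp before its TSS with 67.5 in replicate 1, 20.7 in replicate 2 and 84.5 pooled. The trap-2 gene, for a subunit of the translocon-associated complex of the endoplasmic reticulum, had a peak 175 bp before its TSS with 36.4 in replicate 1, 29.6 in replicate 2 and 64.2 pooled. These 3 sites had a peak in each replicate. The C14A11.9 gene (84.1) and the mannosidase gene mans-3 (61.0) had theirs 149 and 144 bp before the TSS. The rab-14 gene, for a Rab GTPase of membrane traffic, had 43.0 in replicate 1 and no peak in replicate 2. Of the 25 strongest X peaks, others within 2 kb of a TSS were nearest WBGene00020828, F55G7.5, fbxb-58, ZK816.3, F13C5.2, M163.11, F20B6.9, nspc-17, F54E4.3 and F46H5.2, with signals from 58.3 to 81.4. The M163.11 peak lay 175 bp from a small RNA gene. The gly-13 and C14A11.9 windows, both on the minus strand at chrX:9296749-9296849 and chrX:2809736-2809836, are printed with any E-box and the words CCGCAC and CGCACA in capitals, on either strand, as examples of an upstream site with an E-box.
gly-13: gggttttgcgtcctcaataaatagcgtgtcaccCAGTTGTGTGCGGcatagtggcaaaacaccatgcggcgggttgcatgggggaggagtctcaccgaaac
C14A11.9: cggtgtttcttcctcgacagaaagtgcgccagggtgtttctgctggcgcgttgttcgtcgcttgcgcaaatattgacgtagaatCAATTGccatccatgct

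The E-box itself was common in both groups. CANNTG is a short word, and its share over all windows of the genome is not given here. The shares below thus show no enrichment of the E-box at peaks by themselves. Any CANNTG stood in 289 X windows (57.7%; 53.3 to 61.9%) and 1409 autosomal windows (49.5%; 47.6 to 51.3%), an odds ratio of 1.39 (1.15 to 1.69; two-sided Fisher's exact test, adjusted p = 0.00408 over 10 motifs). Weaker peaks had 57.3% on X and 50.7% on the autosomes, and no difference between strong and weaker peaks was detected in that contrast (ratio of odds ratios 1.07, 0.86 to 1.32; z test, n = 501 X peaks, adjusted p = 0.896). The call was lost in windows of 50 bp to each side (34.5% on X and 29.1% on the autosomes, Fisher's exact test, adjusted p = 0.0860). At signals of 40 or more it was lost too (54.8% on X and 47.4% on the autosomes, exact test, adjusted p = 0.366). With only 22 X peaks at 60 or more the odds ratio was larger, 2.72, but did not pass (72.7% on X and 48.2% on the autosomes, exact test, adjusted p = 0.102). The IDR list, with 23 X peaks, gave 2.40, which did not pass (69.6% on X and 47.8% on the autosomes, exact test, adjusted p = 0.153). The call was also lost against chromosome I (Fisher's exact test, adjusted p = 0.0626), II (0.0536) or V alone (0.144). Of single E-box types, CAAGTG was at 11.2% of X peaks and 9.45% of autosomal peaks, CACATG at 7.58% and 6.53%, CAGCTG at 5.99% and 3.90%, and CACCTG at 4.79% and 4.42%. The words CCGCAC (8.18% of X and 6.57% of autosomal peaks) and CGCACA (10.4% of X and 8.50% of autosomal peaks) overlap each other. The share of CCGCAC was higher on X in each range of signal below 50. At 50 or more it was 10.8% of 37 X peaks and 17.1% of 327 autosomal peaks, which was not tested. The words GTTCGA (5.79% of X and 6.36% of autosomal peaks) and CGAACC (3.59% of X and 3.90% of autosomal peaks) belong to the B box inside tRNA genes. None of these 8 passed. With the GCGCAGGG windows left out, 3 words remained more frequent at X peaks than at weaker X peaks: AGGGAGAG at 3.32% of X peaks and 0.505% of weaker X peaks, ACACACAC at 7.05% of X peaks and 2.43% of weaker ones, and CGAGAGAG at 3.11% of X peaks and 0.505% of weaker ones.

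X windows held less repeated sequence. The genome file marks repeats in lower case, and windows mostly of such bases made up 60 X windows (11.98%; 9.42 to 15.1%) and 901 autosomal windows (31.6%; 29.95 to 33.4%), an odds ratio of 0.30 (0.22 to 0.39; two-sided Fisher's exact test, p = 1.11e-21). Weaker peaks had 14.5% on X and 32.3% on the autosomes. The median GC content was 41.3% at X peaks and 38.3% at autosomal peaks.

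Along the chromosome the X peaks were spread rather evenly. Cut into 10 equal segments, X held between 42 and 61 peaks in each, the most in the leftmost. Of 3 equal segments, the central one held 144 of 501 X peaks (28.7%) and 781 of 2848 autosomal peaks (27.4%), an odds ratio of 1.07 (0.87 to 1.32; two-sided Fisher's exact test, p = 0.551), so no difference was detected. It held 32.0% of weaker X peaks and 27.3% of weaker autosomal peaks, and 35.8% of X genes and 38.1% of autosomal genes. At signals of 20 or more the central segment held 30.9% of X peaks and 27.1% of autosomal peaks, which passed (odds ratio 1.20, Fisher's exact test, p = 0.000182). In replicate 2 alone it held 36.5% on X and 30.5% on the autosomes (odds ratio 1.31, Fisher's exact test, p = 0.00697). The 19 peaks with GCGCAGGG lay in all 10 segments, 1 to 3 in each.

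**Figure D5:**
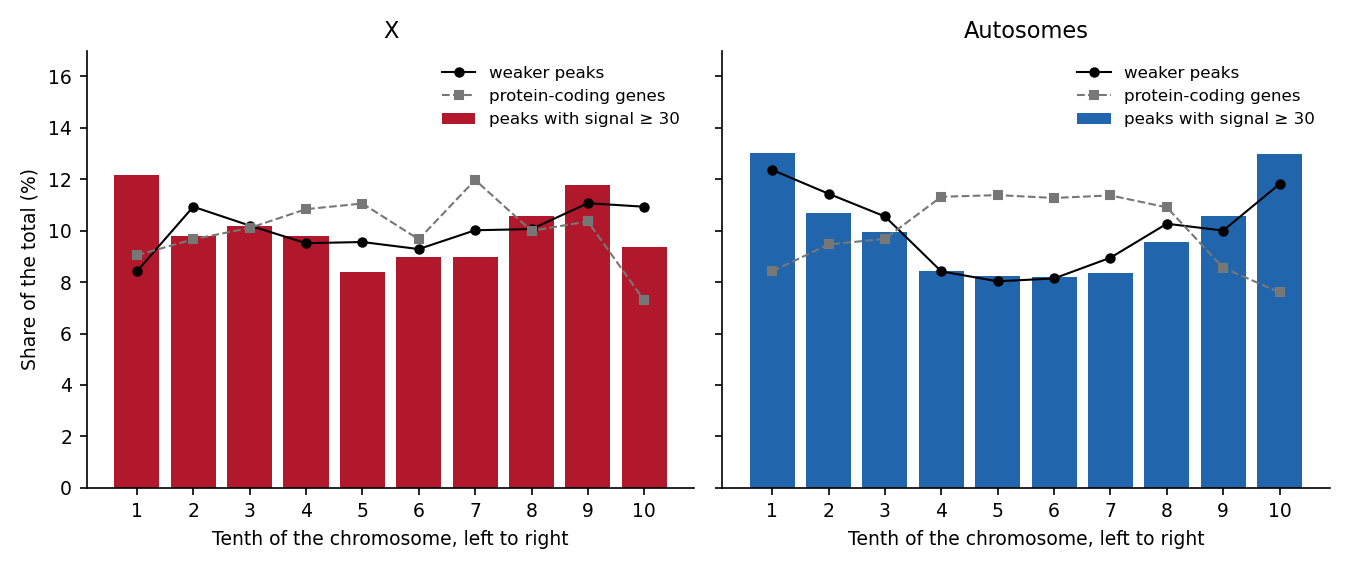
Share of the strong peaks (bars), of weaker peaks (black circles) and of protein-coding genes (grey squares) in each of 10 equal segments of the chromosome, in percent on the vertical axis, for X (left) and for the 5 autosomes together (right). On X the bars lie between 8.38 and 12.2%, and on the autosomes between 8.22 and 13.0% with the most at both ends.

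The median gap between neighbouring X peaks was 23385 bp. Joining summits within 500 bp gave 476 sites, of which 25 held a pair. Joining them within 5 kb gave 17 groups of 3 or more, and the largest held 7 peaks near hbl-1, the Hunchback-like zinc finger gene of developmental timing, from chrX:5812683 to chrX:5820268. Their pooled signals ran from 33.2 to 75.3. The strongest had 43.4 in replicate 1 and 28.2 in replicate 2, and 3 of the 7 lay in exons of non-coding genes and 4 between genes. The gene hlh-15, itself on X and carried by the transgene, had its nearest pooled peak 448 bp away with a signal of 19.9, below the threshold, and 2 X peaks lay within 50 kb of it.

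A gene was counted where it was the nearest to an X peak within 2 kb of its TSS. That held for 286 of 2731 X genes (10.5%) and, with autosomal peaks, for 1810 of 17242 autosomal genes (10.5%). The gene lists were read against that share without a test. Vesicle traffic genes had 5 of 19 X members, among them rab-14 (59.3), rab-6.2 (41.2), the exocyst subunit sec-3 (35.03) and the SNARE regulator vps-45 (32.6). Translation factors had 2 of 3, the cap-binding protein gene ife-4 (47.5) and the elongation factor gene eef-1A.2 (42.3). Cytosolic ribosomal proteins had 1 of 2, rpl-11.2 (42.4). Mitochondrial respiration had 1 of 4, ucr-2.2 (33.95), chaperones 1 of 5, the endoplasmic reticulum Hsp70 gene hsp-3 (31.0), and splicing and RNA binding 1 of 5, fox-1 (32.7), an X-linked element of the sex signal. On the autosomes the shares were 17.6% for vesicle traffic genes, 24.3% for translation factors and 18.99% for cytosolic ribosomal proteins. They were 25.7% for mitochondrial respiration, 21.8% for chaperones and 26.5% for splicing and RNA binding. All of these lists were thus above 10.5% on the autosomes too. The X share was below the autosomal one for respiration, chaperones and splicing, and above it for the others. The X lists are small, and 1 gene moves the share by much.

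Synaptic and neuronal genes had 7 of 44 X members (15.9%), among them lgc-21 (38.2), a ligand-gated ion channel, the calcium channel gene unc-2 (34.9), unc-10 (32.0), the RIM protein of the active zone, and the potassium channel gene twk-20 (31.9). Muscle genes had 3 of 8, the actin gene act-4 (50.6), unc-97 (38.1), a LIM protein of muscle attachment, and sup-10 (34.2). Cuticle collagens had 4 of 27, col-185, col-9, col-177 and col-44, with signals from 30.7 to 37.6. Neuropeptides and insulins had 2 of 34, nlp-76 (40.7) and ins-39 (38.0), chemoreceptors 1 of 33, srd-43 (31.4), and the intestine and lipid list 0 of 16. The nlp-76 and srd-43 peaks lay 127 and 156 bp from a small RNA gene and had signals of 51.0 and 59.3 in replicate 2. Autosomal shares were 8.47% for synaptic and neuronal genes, 18.2% for muscle genes and 10.8% for cuticle collagens. They were 3.74% for neuropeptides and insulins, 2.35% for chemoreceptors and 11.5% for the intestine and lipid list.

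Among regulators, nuclear receptors had 3 of 26 X members, nhr-3 (47.9), nhr-48 (36.9) and daf-12 (34.8), the receptor of the dafachronic acids. Homeobox factors had 2 of 24, vab-3 (40.5), the worm Pax-type gene, and ceh-18 (34.9). The bHLH list, the family of HLH-15, had 1 of 9, mdl-1 (37.1). Chromatin and dosage compensation genes had 1 of 15, set-20 (47.01), 29 bp upstream of its TSS. Proteasome and ubiquitin genes had 0 of 4, and the aminoacyl-tRNA synthetase and mitochondrial ribosomal protein lists have no X gene. Autosomal shares were 8.50% for nuclear receptors, 15.6% for homeobox factors and 7.14% for the bHLH list. They were 22.2% for chromatin and dosage compensation genes and 15.1% for proteasome and ubiquitin genes.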

How the data were processed

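The ce11 lists of the 2 replicates, of both pooled and of the IDR step were used. The pooled list is the one deposited as peaks and background for input to the IDR step. Per the deposited notes, the authors derived them from alignments of the immunoprecipitated libraries with a control library. Which aligner and peak caller were used is not given in the sources used here. Signal values are the authors' scores in the deposited lists, with no stated scale, and were used only within a list. The authors also deposited a −log10 q per peak, which entered no result, and ce10 lists, which were not used here. Read depth is unknown, so intervals cover counting over peaks only.

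Summits were compared with WBcel235 and Ensembl release 115 (29314 TSSs of 19973 protein-coding genes). Where 1 replicate was left out, the 3671 strongest peaks of the other's list took the place of the pooled ones. A replicate value is that of the replicate peak over the summit. Classes were taken in order: upstream 1 kb or 5′ UTR, coding exon, 3′ UTR, intron, non-coding exon, intergenic. Windows reached 100 bp to each side. Two-sided Fisher's exact tests were run on shares, odds ratios with 0.5 added to each cell, Benjamini-Hochberg adjustment within each family and a threshold of 0.05. Contrasts at strong and weaker peaks were compared with a z test of log odds ratios. Words of 8 bases in at least 10 windows were searched. Scripts (Python 3.11.15, pandas 2.3.3, numpy 2.4.6, scipy 1.17.1) were tested on simulated data. Named genes are the nearest within 2 kb of the 25 strongest X peaks, up to 4 genes of each of 19 lists, the genes at the threshold and hlh-15; genes at GCGCAGGG, CGAAGGGA, non-coding RNAs, the shared stretch and hbl-1 were named after their values were seen. The X peaks, lists and motifs were chosen with earlier results of these data known. The replicates are separate biological samples of 1 group, and peaks are not replicates of it.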

Additional observations from a re-analysis of the deposited data

How the results depend on the processing

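Most results kept their direction and their side of the threshold, namely 247 of 333 values recomputed under another choice. Those that turned direction, or that changed a call or a count of a main comparison, are given here in odds ratios of X over autosomal peaks unless named otherwise, and the cause was not tested. At a signal of 20 or more, 7 motifs, 2 of the other gene types and 251 words of 8 bases passed, the central segment reached 1.20, and the contrasts of strong against weaker peaks turned round (1.05 upstream, 0.98 intergenic, 1.33 near the TSS). At 40 or more 1 other annotation class, 1 motif and 12 words passed, with ratios of 1.10 for introns and 0.83 for the central segment. At 60 or more 1 other class and 0 gene types and 0 words passed, with 1.54 for introns, 0.87 for the central segment and 0.48 near the TSS (Fisher's exact test, p = 0.165). The IDR list gave 1 other class, 0 gene types and 0 words, 1.52 for introns, 0.77 for the central segment and 0.45 near the TSS (exact test, p = 0.113). Only 22 and 23 X peaks remain in the last pair of lists. Without replicate 1 or without replicate 2 the central segment ranged from 1.11 to 1.31, the upstream contrast of strong against weaker peaks from 0.86 to 0.90 (z test, n = 511 and n = 531 X peaks, p = 0.179 to 0.346), and the number of words from 10 to 26. Against single autosomes 1 motif passed for I, II and V, 2 gene types for I and IV and 0 for V, 1 other class for V, and 9, 11, 6 and 9 words for I, II, IV and V. The upstream contrast did not pass against I (z test, n = 501 X peaks, 0.84, p = 0.220), IV (0.77, p = 0.0866) and V (0.76, p = 0.0541), nor with 2 kb as the upstream limit (0.83, p = 0.0806), and the central segment turned to 0.90 against IV. Windows of 50 bp to each side left 1 motif. The contrast of strong against weaker peaks for CANNTG turned to 0.98 against I and in those windows, and to 0.97 in windows of 200 bp. With words of 6 bases 172 passed. GCGCAGGG stayed past the threshold in all of its alternatives, with odds ratios from 10.5 against chromosome III to 232 at a signal of 60 or more, as did the upstream, intergenic, divergent and masked shares in theirs. Of the results below the main comparisons, some calls were lost with the direction kept. This held under 10 of 16 alternatives for the near-TSS contrast, 7 of 16 for CANNTG, 5 of 16 for non-coding exons, 3 of 14 for other non-coding RNA genes and 2 of 16 for introns. Calls were also lost where the direction turned, under 3 of 16 alternatives for introns and 1 of 16 for the near-TSS contrast. The contrasts of strong against weaker peaks came to pass under 6 of 16 alternatives for intergenic peaks, 3 of 15 for divergent pairs and 1 of 16 for GCGCAGGG. The alternatives for the classes other than upstream, the gene types, the masked share, the contrasts with weaker peaks and the words were chosen after seeing the data. No paired analysis was possible because the 2 replicates belong to 1 group. Peak signal without read counts gives no error for a single site, and replicate lists differ in length (21249 and 30000 peaks).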
